A study of Caenorhabditis elegans with 6 samples.

Results

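Levels of 9 transcription factor genes that are known for roles in stress resistance, immunity and lifespan were examined in whole Caenorhabditis elegans larvae. The genes were daf-16, skn-1, pqm-1, hlh-30, hsf-1, pha-4, unc-62, atf-7 and zip-2. They were chosen by name, with earlier results of these data known, and all 9 were found among the 19512 genes of the count table. All 9 also passed the filter on low counts and were among the 11474 genes tested. The samples were 6 cultures of the wild-type strain N2, each of about 10000 animals, fed from the first larval stage (L1) and collected 28 hours later at the last larval stage (L4). Per the labels, 3 cultures (elt-2 RNAi A, B and C) ate bacteria producing double-stranded RNA against elt-2, and 3 (control A, B and C) ate bacteria with an empty vector. The design asks which genes depend on elt-2, a GATA transcription factor of the intestine, at this stage.

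These factors sit at the ends of conserved signalling pathways. DAF-16, a FOXO protein, is held out of the nucleus by insulin signalling, and PQM-1, a zinc finger protein, is known to take the opposite place to it in the nucleus of intestinal cells. SKN-1 (Nrf family) drives detoxification genes, HSF-1 drives chaperone genes after heat, and HLH-30 (TFEB family) drives autophagy and lysosomal genes during starvation and infection. PHA-4 (FoxA family) builds the pharynx in the embryo and is needed for lifespan extension by diet restriction, and UNC-62 (homothorax/Meis family) works beside homeodomain proteins in development and regulates intestinal genes with age. ATF-7 and ZIP-2 are bZIP proteins of the response to bacteria, the first a target of the p38 kinase pathway and the second a separate regulator of infection response genes. Much of the activity of these proteins is set by where they are in the cell and by phosphorylation, which transcript counts do not measure.

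The target of the RNAi went against the labels. elt-2 had 33.4, 5.82 and 179 CPM (counts per 1000000, scaled for library composition by TMM factors) in the elt-2 RNAi libraries, against 4.09, 1.54 and 3.32 CPM in the control libraries. The 3 values of a group stand here and below in the order A, B, C. elt-2 was thus higher under the elt-2 RNAi label, by 4.60 ± 1.16 on the log2 scale (SE; edgeR quasi-likelihood test, Benjamini-Hochberg adjusted p = 0.0395), a call that did not hold when control A (4.71, adjusted p = 0.101) or elt-2 RNAi C (2.72, adjusted p = 0.117) was left out. Group names are therefore those of the labels, every difference is one between labelled groups, and no direction is read as an effect of lower elt-2. Total counts were 29578175 to 35047530 in the elt-2 RNAi group and 16568515 to 24168901 in the control group. The most abundant 3% of genes held 90.8% to 93.3% of the counts in the elt-2 RNAi group and 72.8% to 90.9% in the control group, and the TMM factors that offset this were 0.491 to 0.697 in the elt-2 RNAi group and 0.973 to 3.47 in the control group. Libraries of the same letter did not deviate together from their group means, and those lettered B deviated in opposite directions (r = -0.571 across genes). The labels do not say whether same-lettered cultures were paired.

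Of the 9 transcription factor genes, 5 were lower under the elt-2 RNAi label at an adjusted p under 0.10 (unc-62, zip-2, pqm-1, pha-4 and hsf-1), and none was higher. At an unadjusted p under 0.05 the edgeR test also gave 5 lower and 0 higher, where 20.2% of all tested genes were lower and 36.4% passed in either direction by that threshold, and neither DESeq2 nor the rank product called any higher. At an adjusted p under 0.10, 15.9% of all tested genes were called lower and 13% higher, 28.9% in either direction. daf-16, hlh-30, atf-7 and skn-1 were not called. All 9 log2 fold changes were below 0, from -1.77 for pha-4 to -0.13 for skn-1, with a median of -0.99, where 53.2% of all tested genes were below 0 and the median tested gene was at -0.12. Among the 4458 tested genes whose mean level lay within the range of these 9 (4.34 to 36.3 CPM), 15.4% were called lower and 15.5% higher, and their median was -0.01. In whole animals, fewer cells of a type and less RNA per cell cannot be told apart.

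**Figure D1:**
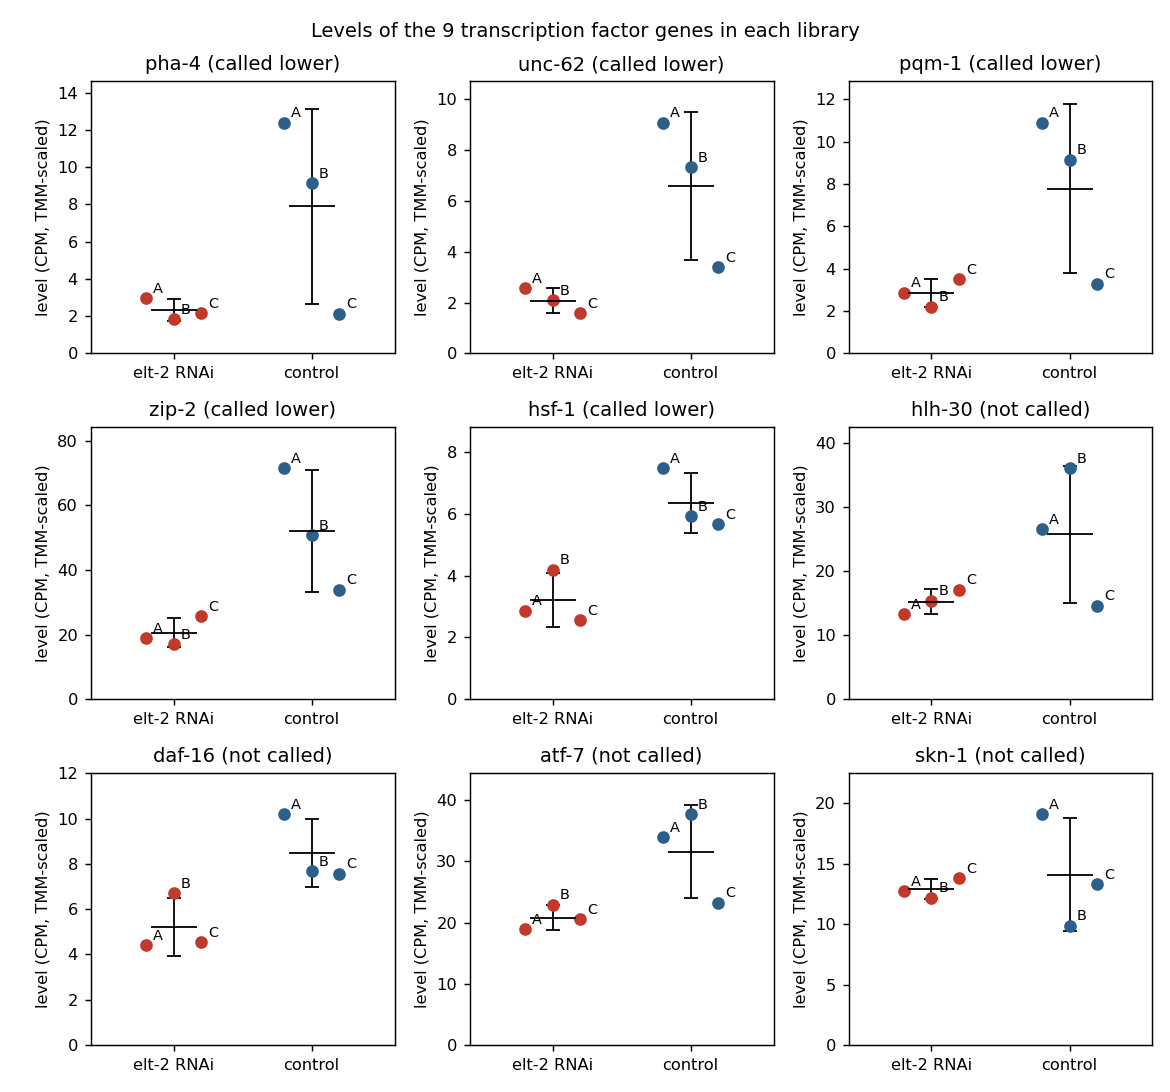
Level of each transcription factor gene in each library (points, CPM scaled by TMM, linear axes from 0), with the libraries labelled elt-2 RNAi in red on the left and the control libraries in blue on the right. Lines are the mean and SD of 3 libraries. zip-2 sits between 17.1 and 25.7 CPM in the elt-2 RNAi libraries, below all control points, and in 8 of the 9 genes control C is below both control A and control B.

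unc-62 (T28F12.2) lies on chromosome V at 4497461 to 4511449, plus strand, with 18 annotated transcripts. It had 2.57, 2.10 and 1.57 CPM in the elt-2 RNAi libraries, against 9.09, 7.32 and 3.4 CPM in the control libraries. The groups did not overlap, and the elt-2 RNAi libraries differed less among themselves (2.08 ± 0.501 CPM) than the control libraries did (6.6 ± 2.91 CPM; SD, n = 3 each). Its log2 fold change was -1.67 ± 0.45 (SE, adjusted p = 0.0467), the one adjusted p under 0.05 among these factors, and 9.5% of all tested genes had a lower value. The counts behind these levels were 53, 40 and 27 in the elt-2 RNAi libraries and 518, 229 and 80 in the control libraries. The call was lost on leaving out control A (adjusted p = 0.104), elt-2 RNAi B (0.106) or elt-2 RNAi C (0.177), with log2 fold changes that stayed between -1.98 and -1.44 in the 6 fits that each left out 1 library.

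Of 9 tested genes for Pbx, Meis and Hox homeodomain proteins, 4 were called lower and none higher, with a median log2 fold change of -1.46. Of all tested genes, 15.9% were called lower and 13% higher. ceh-20, the worm Pbx/extradenticle gene whose protein binds DNA with UNC-62, had 0.485, 0.419 and 0.349 CPM in the elt-2 RNAi libraries, against 8.95, 2.43 and 1.74 CPM in the control libraries. Its log2 fold change was -3.38 ± 0.71 (adjusted p = 0.0248), the lowest of the partners named here. The Hox gene ceh-13 (labial family) fell by 2.14 on the log2 scale (adjusted p = 0.0555). psa-3 (-2.08), a second Meis family gene, and the Hox gene lin-39 (-1.91) were also called, at mean levels under 2 CPM, and are named after their values were seen. The Hox genes mab-5, egl-5, nob-1 (0.56) and php-3 and the Pbx gene ceh-40 (-0.16) were not called. The count of 4 was 1 without control A, 2 without elt-2 RNAi A, 1 without elt-2 RNAi B and 0 without elt-2 RNAi C. The shares of all tested genes called lower in these fits were 5.63%, 8.96%, 7.85% and 0.758%.

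pha-4 (F38A6.1; chromosome V, 20753052 to 20760317, plus strand) showed the lowest fold change of the 9. Its levels were 2.96, 1.83 and 2.15 CPM in the elt-2 RNAi libraries, against 12.4, 9.15 and 2.13 CPM in the control libraries. Control C lay inside the range of the elt-2 RNAi libraries, so the groups overlapped and the difference was carried by control A and control B. The change on the log2 scale was -1.77 ± 0.61 (adjusted p = 0.0815), with 8.2% of all tested genes lower. The counts were 61, 35 and 37 in the elt-2 RNAi libraries and 705, 286 and 50 in the control libraries. Leaving out control C gave -2.21 (adjusted p = 0.0155). The call was lost when any of the other libraries was left out (adjusted p = 0.193 without control A, 0.128 without control B, 0.122 without elt-2 RNAi A, 0.171 without elt-2 RNAi B and 0.219 without elt-2 RNAi C).

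Of 11 listed genes of the pharynx, the organ PHA-4 specifies, and of PHA-4 partners, 7 were tested (pharyngeal muscle genes, the pharyngeal gland gene phat-3, tbx-2 and the PHA-4 cofactor smk-1). None of these was called lower and 1 was called higher, beside 15.9% lower and 13% higher over all tested genes. Their median was 0.84, and it turned to -0.79 when counts were scaled by library size alone. That scaling also moved the median tested gene, from -0.12 to -1.76. myo-2, a pharyngeal myosin heavy chain, had 27.9, 35.9 and 32.1 CPM in the elt-2 RNAi libraries, against 10.1, 19.4 and 14.5 CPM in the control libraries. It was called higher (1.12 ± 0.38, adjusted p = 0.0788), but its direction turned with library size alone (-0.38) and its call held in 1 of the 6 fits without 1 library, that without control B (1.30, adjusted p = 0.0816). The adjusted p was 0.152 without control A, 0.138 without control C, and 0.12, 0.17 and 0.212 when elt-2 RNAi A, B or C was left out. smk-1 differed by 0.01 between the groups (adjusted p = 0.992). At an unadjusted p under 0.05 edgeR gave 0 lower and 2 higher, DESeq2 called 0 lower and 3 higher, and the rank product called none. Over all 11474 tested genes, DESeq2 called 1841 lower and 2148 higher. tbx-2, a T-box factor gene of the pharynx, was called lower without control C (-1.50, adjusted p = 0.0966) but not with all 6 libraries (-1.16, adjusted p = 0.184). Other tested genes of the list went higher, with all elt-2 RNAi libraries above all control libraries, and were not called. They were tnt-4 (1.32, adjusted p = 0.154), phat-3 (1.32, adjusted p = 0.14) and myo-1 (0.84, adjusted p = 0.132). Of the 4 genes with too few counts to test, 3 were higher in control A and control B than in the other libraries, as pha-4 was. These are named after their values were seen. ceh-22, an NK-2 homeobox gene of pharyngeal muscle, had 0.0485, 0.315 and 0 CPM in the elt-2 RNAi libraries, against 2.49, 0.8 and 0.0425 CPM in the control libraries. peb-1 had 0.0485, 0 and 0 CPM in the elt-2 RNAi libraries, against 1.04, 0.736 and 0 CPM in the control libraries, and was called lower when no filter was applied (-4.74, adjusted p = 0.0781). phat-2 had 0.146, 0.0524 and 0.233 CPM in the elt-2 RNAi libraries, against 1.39, 0.448 and 0.0851 CPM in the control libraries. Its level in control B rested on 14 counts.

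pqm-1 (F40F8.7; chromosome II, 11150391 to 11152595, minus strand, 1 annotated transcript) had 2.86, 2.2 and 3.49 CPM in the elt-2 RNAi libraries, against 10.9, 9.15 and 3.28 CPM in the control libraries. As with pha-4, control A and control B were high and control C lay within the elt-2 RNAi libraries. The log2 fold change was -1.45 ± 0.49 (adjusted p = 0.0776), and 12.7% of all tested genes had a lower one. Counts were 59, 42 and 60 in the elt-2 RNAi libraries and 624, 286 and 77 in the control libraries. The call was kept in 1 of the 6 fits without 1 library, that without control C (-1.82, adjusted p = 0.0247). The adjusted p was 0.152 without control A, 0.124 without control B, and 0.149, 0.173 and 0.181 when elt-2 RNAi A, B or C was left out.

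Downstream genes associated with PQM-1 moved in both directions. Only 5 of 10 listed genes had enough counts to test, and 1 was called lower and 2 higher, with a median of 1.91. Of all tested genes, 15.9% were called lower and 13% higher. hacd-1, which encodes an enzyme of hydroxyacyl-CoA metabolism, had 4.03, 4.72 and 1.22 CPM in the elt-2 RNAi libraries, against 30.5, 8.03 and 10.8 CPM in the control libraries, a change of -2.30 ± 0.67 (adjusted p = 0.0554). Leaving out control A (adjusted p = 0.144) or elt-2 RNAi C (adjusted p = 0.168) ended the call. pept-1, the intestinal peptide transporter, had 16.9, 44.6 and 27.3 CPM in the elt-2 RNAi libraries, against 6.1, 7.58 and 7.78 CPM in the control libraries. It was called higher (2.05 ± 0.44, adjusted p = 0.0263) in all 6 fits without 1 library and was not called with library size alone (0.46, adjusted p = 0.594). The median tested gene was at -1.76 with that scaling. dod-19, named as a gene downstream of DAF-16, was also called higher (2.68 ± 0.86, adjusted p = 0.0690), and this call was lost without control A (adjusted p = 0.105), control C (0.119), elt-2 RNAi A (0.107) and elt-2 RNAi C (0.215).

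zip-2 (K02F3.4; chromosome III, 832982 to 835814, plus strand) was the most abundant of these factors over the 6 libraries. It had 18.9, 17.1 and 25.7 CPM in the elt-2 RNAi libraries, against 71.5, 50.8 and 33.9 CPM in the control libraries. Every elt-2 RNAi library was below every control library. Its log2 fold change was -1.34 ± 0.42 (adjusted p = 0.0654), from 390, 326 and 441 counts in the elt-2 RNAi libraries and 4076, 1589 and 798 counts in the control libraries. The call held without any one of the control libraries (adjusted p = 0.0825, 0.0868 and 0.0548 for A, B and C) and was lost without any one of the elt-2 RNAi libraries (adjusted p = 0.152, 0.166 and 0.167 for A, B and C). The annotated exons of zip-2 share 64 bases with dos-3 on the opposite strand, which had 6 to 9 counts in the elt-2 RNAi libraries and 3 to 7 in the control libraries.

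None of 5 tested ZIP-2 partners and infection response genes was called in either direction by edgeR, DESeq2 or the rank product. Over all tested genes, edgeR called 15.9% lower and 13% higher. At an unadjusted p under 0.05 in edgeR, 1 of the 5 was lower and 0 higher, beside 20.2% of all tested genes lower. The median of the 5 was 0.16. cebp-2, whose bZIP protein acts with ZIP-2, had 9.61, 10 and 8.84 CPM in the elt-2 RNAi libraries, against 17.6, 12.7 and 14 CPM in the control libraries. These groups did not overlap, yet the change of -0.64 ± 0.32 was not called (adjusted p = 0.178). irg-1, the response gene best known to need zip-2, was at 0.728, 1.31 and 0.291 CPM in the elt-2 RNAi libraries, against 0.544, 1.09 and 0.255 CPM in the control libraries. irg-1 was thus near 1 CPM or below in both groups (0.30 ± 0.71, adjusted p = 0.774), and it is named after its values were seen. ifet-1, a translational repressor gene and the most abundant of this list, differed by 0.16 ± 0.76 (adjusted p = 0.890).

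hsf-1 (Y53C10A.12) is on chromosome I at 11953507 to 11963085, minus strand, with 2 annotated transcripts. It had 2.86, 4.19 and 2.56 CPM in the elt-2 RNAi libraries, against 7.47, 5.92 and 5.66 CPM in the control libraries. The groups did not overlap, and control C was close to control B here. The change on the log2 scale was -0.99 ± 0.35 (adjusted p = 0.0871), from 59, 80 and 44 counts in the elt-2 RNAi libraries and 426, 185 and 133 in the control libraries. Among the 9 factors this was the call nearest the threshold. It was lost in all 6 fits without 1 library, with an adjusted p of 0.155 without control A, 0.105 without control B, 0.10 without control C, 0.185 without elt-2 RNAi A, 0.109 without elt-2 RNAi B and 0.276 without elt-2 RNAi C, and also when no filter on low counts was applied (-0.95, adjusted p = 0.133).

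Among HSF-1 partners, hsb-1 was the one called. hsb-1, which encodes a small protein that binds and restrains HSF-1, had 2.57, 4.56 and 4.19 CPM in the elt-2 RNAi libraries, against 27.1, 11.1 and 15.4 CPM in the control libraries. Its log2 fold change was -2.24 ± 0.46 (adjusted p = 0.0226) and stayed called in each of the 6 fits without 1 library. ddl-1, ddl-2 and hsp-90 (daf-21), the chaperone gene, were not called, and the median of the 4 tested partners was -0.20. Of the HSF-1 target genes, 5 could be tested and none was called by edgeR, DESeq2 or the rank product, nor had any an unadjusted p under 0.05 in edgeR. Their median was 0.51, which turned to -0.84 with library size alone, where the median tested gene was at -1.76, against -0.12 with TMM. By edgeR, 15.9% of all tested genes were called lower and 13% higher. hsp-1, a constitutive Hsp70, had 2990, 2900 and 4250 CPM in the elt-2 RNAi libraries, against 530, 2120 and 1980 CPM in the control libraries (1.13 ± 0.70, adjusted p = 0.263). sip-1, a small heat shock protein gene, differed by 0.47 ± 0.73 (adjusted p = 0.653). The heat-inducible hsp-16.1, hsp-16.2, hsp-16.41, hsp-16.48 and hsp-70, several of which have near-identical copies, had too few counts to be tested, and hsp-16.49 and hsp-16.11 were not found under these names.

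hlh-30 (W02C12.3; chromosome IV, 4014793 to 4034951, minus strand, 13 transcripts) was not called. It had 13.3, 15.4 and 17.1 CPM in the elt-2 RNAi libraries, against 26.6, 36.1 and 14.6 CPM in the control libraries. Control B was the highest library and control C lay among the elt-2 RNAi libraries, so the groups overlapped. The log2 fold change was -0.75 ± 0.41 (adjusted p = 0.214), and the adjusted p stayed between 0.115 and 0.389 in the 6 fits without 1 library.

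Many autophagy genes, a class that HLH-30 is known to induce, were lower in the elt-2 RNAi libraries. Of 24 tested autophagy genes, 13 were called lower and none higher, beside 15.9% and 13% of all tested genes. Their median was -1.14. lgg-1, the worm homologue of Atg8/GABARAP that coats the autophagosome, had 41.4, 17.1 and 21.6 CPM in the elt-2 RNAi libraries, against 175, 83.7 and 78.4 CPM in the control libraries (-2.07 ± 0.54, adjusted p = 0.0431). lgg-2, the LC3 homologue, had 4.95, 5.40 and 4.60 CPM in the elt-2 RNAi libraries, against 41.1, 23.7 and 13.8 CPM in the control libraries (-2.40 ± 0.46, adjusted p = 0.0196). atg-13, for a subunit of the complex that starts autophagosome formation, had the lowest fold change of the list (-2.58 ± 0.43, adjusted p = 0.0118), although its annotated span overlaps another coding gene. epg-6, a phosphoinositide-binding WIPI homologue, was also lower (-1.93 ± 0.45, adjusted p = 0.0325). The other called genes, at -1.82 to -1.05, were atg-16.2, atg-5, epg-4, atg-2, atg-16.1, unc-51, atg-18, atg-4.1 and bec-1. sqst-1, the p62 cargo receptor gene that HLH-30 is known to induce, was not called (-0.50, adjusted p = 0.586), nor was the lipid kinase gene vps-34 (0.36, adjusted p = 0.598).

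The autophagy calls depended on single libraries of the elt-2 RNAi group. Their number was 10, 11 and 13 on leaving out control A, B or C, and 12, 5 and 1 on leaving out elt-2 RNAi A, B or C. In the last of these, atg-13 alone was called (-2.45, adjusted p = 0.0748). lgg-1 lost its call without elt-2 RNAi B (adjusted p = 0.117) and elt-2 RNAi C (adjusted p = 0.17), lgg-2 without elt-2 RNAi C (adjusted p = 0.101) and epg-6 without elt-2 RNAi C (adjusted p = 0.136). The share of all tested genes called lower was then 7.85% for elt-2 RNAi B left out and 0.758% for elt-2 RNAi C left out. The list median was between -1.46 and -1.08 in these 6 fits.

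**Figure D2:**
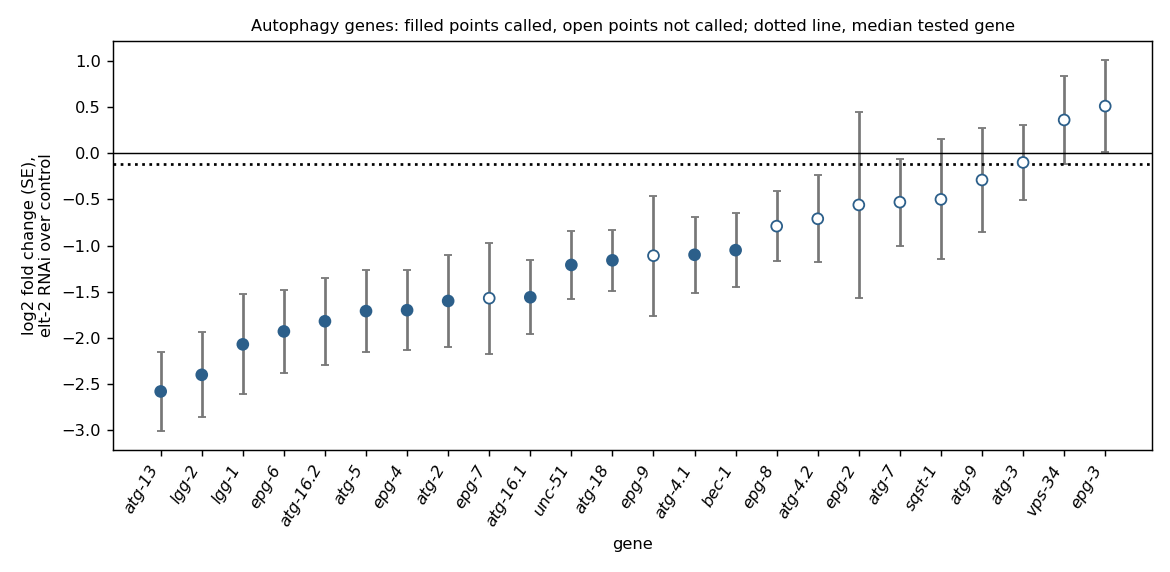
log2 fold change (elt-2 RNAi over control, with its SE) of the 24 tested autophagy genes, ordered from lowest to highest; filled points were called at an adjusted p under 0.10 and open points were not. The 13 called genes lie between -2.58 and -1.05, all below the dotted line at the median tested gene (-0.12), and the 2 genes above 0 are vps-34 and epg-3.

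Among 8 tested HLH-30 regulators and lysosomal lipases, 4 were called lower and none higher, beside 15.9% and 13% of all tested genes. Their median was -1.21. xpo-1 (-1.24 ± 0.35, adjusted p = 0.0521) encodes the exportin that carries HLH-30 out of the nucleus. let-363 (-1.19 ± 0.36, adjusted p = 0.0598) encodes the kinase TOR, which restrains HLH-30, and lipl-1 (-1.25 ± 0.46, adjusted p = 0.0951) and lipl-7 (-2.24 ± 0.58, adjusted p = 0.0424) are lysosomal lipase genes, the last named after its values were seen. mxl-3, whose protein opposes HLH-30 at lipase genes, was not called (-0.19, adjusted p = 0.761). The count of 4 was 1 without control A, 2 without elt-2 RNAi A and 0 without elt-2 RNAi C. The shares of all tested genes called lower were then 5.63%, 8.96% and 0.758%. Annotated spans of xpo-1 and let-363 overlap other coding genes.

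daf-16 (R13H8.1; chromosome I, 10750498 to 10776703, plus strand, 11 transcripts) had 4.42, 6.71 and 4.54 CPM in the elt-2 RNAi libraries, against 10.2, 7.68 and 7.57 CPM in the control libraries. All elt-2 RNAi libraries were below all control libraries, but elt-2 RNAi B came close to the 2 lower controls. The difference of -0.70 ± 0.34 was not called (adjusted p = 0.171; 0.166 to 0.405 without 1 library), and 32.5% of all tested genes were lower. With hsf-1, unc-62, zip-2 and atf-7, it was 1 of 5 of these genes with no overlap in this direction, which 24.2% of all tested genes showed.

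In the insulin pathway upstream of DAF-16, 3 of 11 tested genes were called lower and 1 higher, beside 15.9% and 13% of all tested genes. Their median was -0.70. age-1, the catalytic subunit of the phosphoinositide 3-kinase, had 2.52, 2.57 and 1.80 CPM in the elt-2 RNAi libraries, against 6.93, 3.90 and 4.76 CPM in the control libraries (-1.18 ± 0.38, adjusted p = 0.0686). akt-1, a kinase that phosphorylates DAF-16, was lower by a similar size (-1.16 ± 0.37, adjusted p = 0.0671), as was its paralogue akt-2 at about 1 CPM (-1.96 ± 0.71, adjusted p = 0.0908), named after its values were seen. The receptor gene daf-2 was not called (0.33, adjusted p = 0.694). par-5, which encodes a 14-3-3 protein that binds phosphorylated DAF-16, stood at 1740, 1370 and 1950 CPM in the elt-2 RNAi libraries, against 68.4, 199 and 179 CPM in the control libraries. It was higher by 3.50 ± 0.65 (adjusted p = 0.0168), stayed called in all 6 fits without 1 library and had the same direction with library size alone (2.16). The second 14-3-3 gene ftt-2 was not called (0.68, adjusted p = 0.291). The 3 lower calls numbered 0 without control A, 1 without elt-2 RNAi A and 0 without elt-2 RNAi B or C. The shares of all tested genes called lower were then 5.63%, 8.96%, 7.85% and 0.758%. The annotated spans of age-1 and akt-1 overlap other coding genes.

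No DAF-16 target of 9 tested was called in either direction, beside 15.9% lower and 13% higher over all tested genes. The median of the 9 was -0.67. At an unadjusted p under 0.05 edgeR gave 0 lower and 1 higher. DESeq2 called 0 lower and 1 higher, and the rank product 2 lower and 0 higher. Over all tested genes, DESeq2 called 16% lower and the rank product 13%. When both libraries lettered B were left out, 3 of the 9 were called lower and 0 higher, beside 8.16% of all tested genes lower. mtl-1, named after its values were seen, had 8.01, 27.6 and 1.16 CPM in the elt-2 RNAi libraries, against 50.4, 5.85 and 27.9 CPM in the control libraries. sip-1, also an HSF-1 target, is given above, and icl-1, an enzyme gene of the glyoxylate cycle, had 92.8, 32.9 and 50.9 CPM in the elt-2 RNAi libraries, against 76.6, 146 and 59.3 CPM in the control libraries (-0.67 ± 0.55, adjusted p = 0.382). The groups overlapped for icl-1. sod-3, the superoxide dismutase gene often used as a readout of DAF-16, was at 1.05 CPM or below in the elt-2 RNAi libraries and at 1.06 CPM or below in the control libraries (adjusted p = 0.433), and is named after its values were seen.

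atf-7 (C07G2.2; chromosome III, 4491627 to 4499045, minus strand) had 18.9, 22.9 and 20.5 CPM in the elt-2 RNAi libraries, against 33.9, 37.7 and 23.2 CPM in the control libraries. The groups were apart by the small gap between elt-2 RNAi B and control C. The difference of -0.61 ± 0.36 was not called (adjusted p = 0.239; 0.199 to 0.441 without 1 library). Its exons share 72 bases with C07G2.5 on the same strand, for which no count was matched.

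Of 6 tested genes of the p38 pathway that acts on ATF-7, 2 were called lower and none higher, with a median of -0.89. Of all tested genes, 15.9% were called lower and 13% higher. nsy-1, the kinase at the head of the cascade, had 3.15, 3.62 and 3.61 CPM in the elt-2 RNAi libraries, against 12.3, 9.85 and 6.08 CPM in the control libraries (-1.45 ± 0.37, adjusted p = 0.0402). pmk-2, a p38 kinase gene, was at 0.194, 0.419 and 0.233 CPM in the elt-2 RNAi libraries, against 3.53, 1.34 and 0.978 CPM in the control libraries (-2.78 ± 0.67, adjusted p = 0.0350), and is named after its values were seen. sek-1 and tir-1 were not called, and pmk-1, the p38 kinase best known to act on ATF-7, had too few counts to be tested. Both calls were lost without elt-2 RNAi C, where 0.758% of all tested genes were called lower. None of 7 tested immune response genes of this pathway was called by edgeR or DESeq2, and none had an unadjusted p under 0.05 in edgeR. The rank product called 2 of them lower, beside 13% of all tested genes. When both libraries lettered B were left out, 3 of the 7 were called lower, beside 8.16% of all tested genes. The median of the 7 with all 6 libraries was -0.22. The 2 most abundant were lys-2 (1.0 ± 0.60, adjusted p = 0.246) and clec-85 (-0.02 ± 1.09, adjusted p = 0.988). clec-85 had 17.4, 141 and 14.3 CPM in the elt-2 RNAi libraries, against 36.7, 10.1 and 129 CPM in the control libraries.

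skn-1 (T19E7.2; chromosome IV, 5651039 to 5660384, minus strand, 4 transcripts) showed the smallest difference. It had 12.7, 12.2 and 13.8 CPM in the elt-2 RNAi libraries, against 19.1, 9.88 and 13.3 CPM in the control libraries. The elt-2 RNAi libraries all lay inside the range of the control libraries. Its log2 fold change was -0.13 ± 0.36 (adjusted p = 0.803), with 49.6% of all tested genes lower, and it was 0.03 without control A. skn-1 shares 41 exon bases with csn-5 on the opposite strand, which had 2545 to 6251 counts in the elt-2 RNAi libraries and 3281 to 5846 in the control libraries, while skn-1 had 232 to 261 counts in the elt-2 RNAi libraries and 309 to 1089 in the control libraries, and reads in these bases cannot be told apart if strand was not used.

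Regulators of SKN-1 had a median of -0.90. Beside 15.9% lower and 13% higher over all tested genes, 3 of the 8 tested regulators were called lower and none higher. They were nsy-1, given above, ire-1 (-1.41 ± 0.35, adjusted p = 0.0379), the sensor of unfolded proteins in the endoplasmic reticulum, and xrep-4 (-1.23 ± 0.33, adjusted p = 0.0442), which is known to be needed for SKN-1 activation. xrep-4 had 3.35, 3.77 and 3.32 CPM in the elt-2 RNAi libraries, against 10.2, 7.58 and 6.81 CPM in the control libraries. wdr-23, the main repressor of SKN-1, did not overlap between groups and was not called (-0.92, adjusted p = 0.103). These 3 lower calls were lost without elt-2 RNAi C, where 0.758% of all tested genes were called lower. The median of the 7 tested SKN-1 targets was 0.99. It turned to -0.72 with library size alone, where the median tested gene was at -1.76, against -0.12 with TMM. Of these targets, none was called lower and 1 higher. That gene, gst-7, a glutathione S-transferase of a family with close copies, had 61.2, 50.0 and 59.2 CPM in the elt-2 RNAi libraries, against 31.6, 25.0 and 29.0 CPM in the control libraries (0.99 ± 0.35, adjusted p = 0.0871). Its call was lost in all 6 fits without 1 library (adjusted p = 0.108, 0.181 and 0.156 for control A, B and C, and 0.18, 0.151 and 0.244 for elt-2 RNAi A, B and C), and its direction turned with library size alone (-0.72). gcs-1 and gst-4, often used as readouts of SKN-1, were not called (-0.78, adjusted p = 0.166 and 0.81, adjusted p = 0.464).

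**Figure D3:**
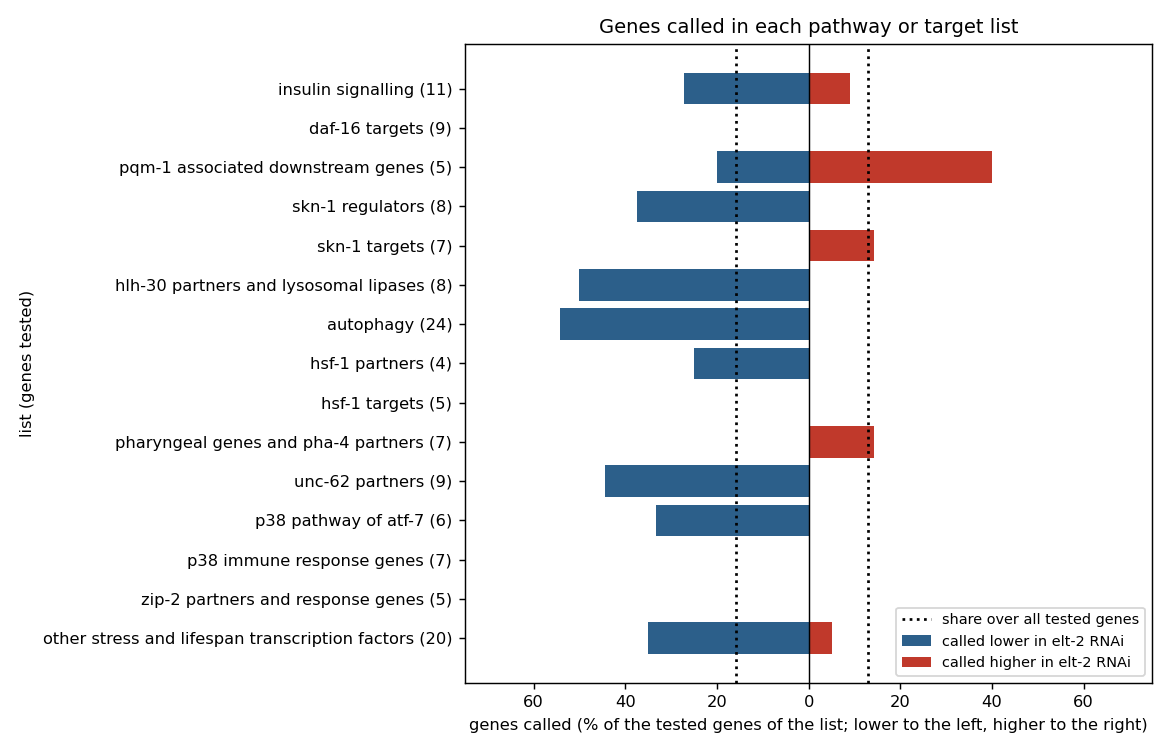
Percent of the tested genes of each pathway or target list called lower (blue, to the left) or higher (red, to the right) in the libraries labelled elt-2 RNAi, with the number of tested genes beside each name. Dotted lines are the shares over all tested genes, 15.9% lower and 13% higher. The autophagy list, with 13 of 24 genes called lower, reaches farthest to the left, and the target lists of daf-16, hsf-1 and the p38 pathway and the zip-2 list have no bar.

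Over the 131 distinct tested genes of these lists, 37 (28.2%) were called lower and 6 (4.58%) higher. The shares over all tested genes were 15.9% lower and 13% higher. The median of the 131 genes was -0.69, and that of all tested genes was -0.12. The lists were chosen with earlier results of these data known. Of the 24 called genes named by the rule, elt-2 aside, 4 (par-5, pept-1, atg-13 and hsb-1) were called in all 6 fits without 1 library, and the number still called was 12, 22 and 21 on leaving out control A, B or C and 15, 15 and 4 on leaving out elt-2 RNAi A, B or C. The list of 20 further stress and lifespan factors held 7 lower calls and 1 higher, elt-2. The lower ones were cep-1, the p53 homologue (-1.44 ± 0.40, adjusted p = 0.0493), nhr-49, a nuclear receptor of fat metabolism (-1.40 ± 0.45, adjusted p = 0.0699), and mml-1, a Myc and Mondo relative that acts beside HLH-30 (-1.24 ± 0.43, adjusted p = 0.0812), with hif-1, atf-6, daf-5 and sta-1, which are named after their values were seen. The 7 lower calls numbered 0 without control A, 4 without control B, 2 without elt-2 RNAi A, 2 without elt-2 RNAi B and 0 without elt-2 RNAi C. The shares of all tested genes called lower were then 5.63%, 14.8%, 8.96%, 7.85% and 0.758%.

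The order of the 9 factors by level differed between the groups at both ends. 3SEQ counts 3′ ends, so these CPM are not divided by transcript length. In the elt-2 RNAi group the mean levels ran from atf-7 (20.7 ± 2.0 CPM) and zip-2 (20.6 ± 4.51 CPM) through hlh-30 (15.3 ± 1.88 CPM), skn-1 (12.9 ± 0.865 CPM) and daf-16 (5.22 ± 1.29 CPM) to hsf-1 (3.21 ± 0.869 CPM), pqm-1 (2.85 ± 0.645 CPM), pha-4 (2.32 ± 0.580 CPM) and unc-62 (2.08 ± 0.501 CPM; SD, n = 3). Neighbours in this order had overlapping ranges except skn-1 and daf-16, and daf-16 and hsf-1. In the control libraries the order was zip-2 (52.1 ± 18.8 CPM), atf-7 (31.6 ± 7.52 CPM), hlh-30 (25.8 ± 10.8 CPM), skn-1 (14.1 ± 4.66 CPM), daf-16 (8.5 ± 1.52 CPM), pha-4 (7.88 ± 5.24 CPM), pqm-1 (7.79 ± 4.01 CPM), unc-62 (6.6 ± 2.91 CPM) and hsf-1 (6.35 ± 0.983 CPM), and all neighbours overlapped. hsf-1, last among the controls, was sixth in the elt-2 RNAi group.

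The control libraries were not alike for these genes. All 9 were highest in control A or control B, as were 45.2% of all tested genes. The highest library was control A for 7 of them (33.8% of all tested genes) and control B for hlh-30 and atf-7. In 8 of the 9, all but skn-1, control C was below both control A and control B, as it was for 31.1% of all tested genes, and for 4 (pqm-1, hlh-30, pha-4 and skn-1) it lay within the range of the elt-2 RNAi libraries. Composition moved the same way. The share of counts held by the most abundant 3% of genes was 90.8% to 93.3% in the elt-2 RNAi libraries and 72.8%, 86.6% and 90.9% in control A, B and C. Its part in the lower levels of these factors was not tested.

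The distance of the factors from the median gene depended in part on the scaling. Scaled by library size alone, the median tested gene moved to -1.76, and all 9 factors were called lower beside 52.3% of all tested genes. Relative to that median, pha-4 was at -1.97, unc-62 at -1.75, pqm-1 at -1.62, zip-2 at -1.49 and hsf-1 at -0.97, against -1.65, -1.55, -1.33, -1.22 and -0.87 with TMM and -1.32, -1.43, -1.16, -1.18 and -0.87 on the fractions used by the rank product. The spread was widest for pha-4. skn-1 was at -0.22 with library size alone and at -0.01 with TMM, and was the one factor whose distance changed sign, to 0.04, on those fractions. Without the most abundant 3% of genes the median gene was at -0.65, and 8 factors, all but skn-1, were called lower beside 32.7% of all tested genes. With DESeq2 the same 5 were called, beside 16% of all tested genes, and the rank product called unc-62 alone, beside 13%. Leaving out control A, B or C gave 1, 2 and 4 calls among the factors (5.63%, 14.8% and 16.6% of all tested genes), and leaving out elt-2 RNAi A, B or C gave 1, 0 and 0 (8.96%, 7.85% and 0.758%). Both libraries lettered B were the lowest in elt-2 in their group. Without them none of the 9 was called, beside 8.16% of all tested genes. The values were then -1.68 for unc-62 (adjusted p = 0.138), -1.33 for zip-2 (0.183), -1.36 for hsf-1 (0.114), -1.59 for pha-4 (0.227) and -1.25 for pqm-1 (0.230).

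**Figure D4:**
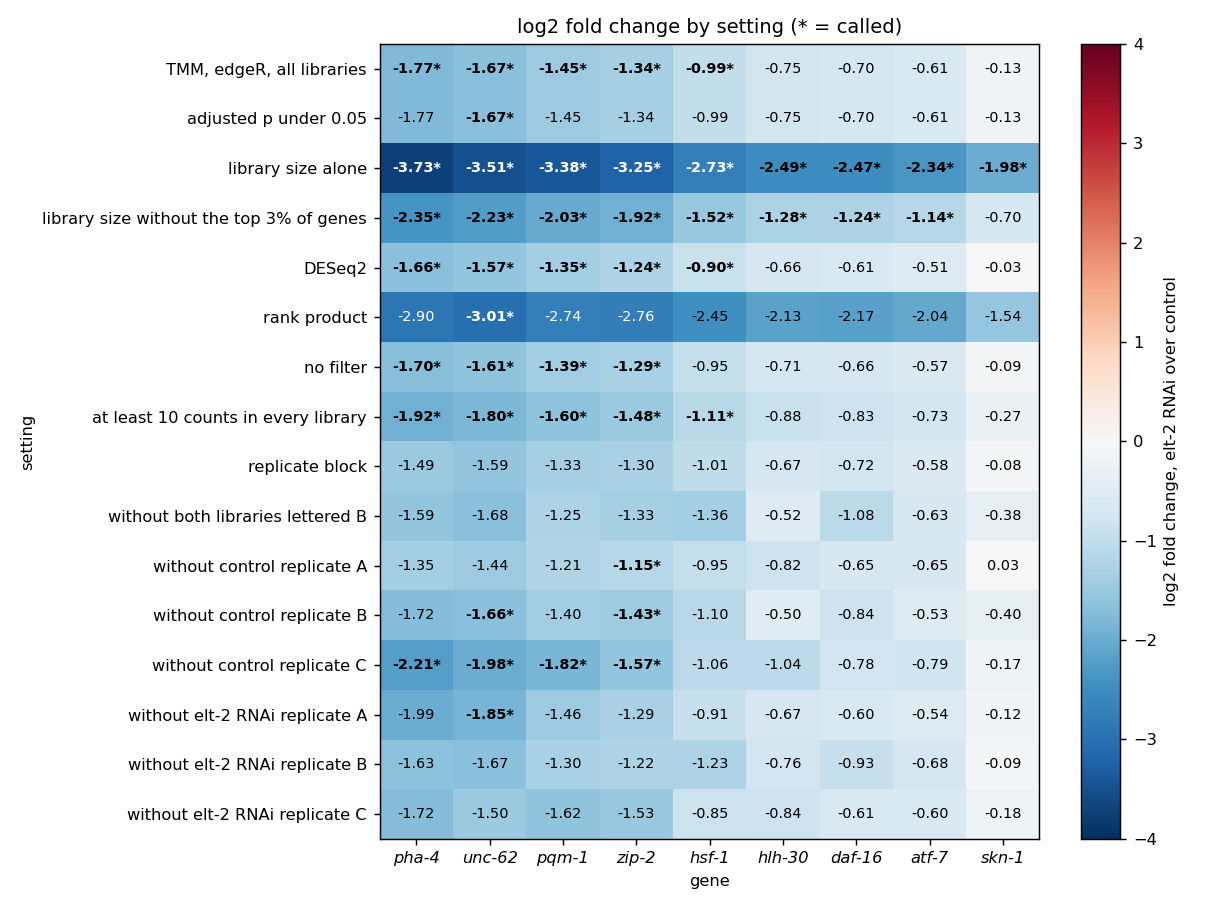
log2 fold change (elt-2 RNAi over control; blue below 0, red above 0) of each transcription factor gene in each setting of the test, with an asterisk where it was called lower. Every value is below 0 except that of skn-1 without control A (0.03), while the calls range from all 9 with library size alone to 0 with the replicate block, without elt-2 RNAi B, without elt-2 RNAi C and without both B libraries.

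The factors showed a few patterns across the 6 libraries. Likeness was measured as Pearson's r of log2 CPM over 6 libraries, which share their depth and composition, and is a description only. Among the 9, hsf-1 and daf-16 were most alike (r = 0.983), as were pqm-1 and pha-4 (r = 0.967) and hlh-30 and atf-7 (r = 0.950). unc-62 was nearest to pha-4 (r = 0.933) and zip-2 to pqm-1 (r = 0.952). skn-1 stood apart, with zip-2 as its nearest (r = 0.375).

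The closest genes among 5429 with a mean of at least 5 CPM were oaz-1 (r = 0.996) and mdt-8 (r = 0.995) for daf-16, ubxn-2 (r = 0.996) and rnf-5 (r = 0.992) for hsf-1, and K06G5.1 and F54D5.3 (r = 0.988 each) for pqm-1. For pha-4 they were kpc-1 (r = 0.992) and F41E6.5 (r = 0.987), for unc-62 cpt-1 (r = 0.996) and F13C5.2 (r = 0.994), for atf-7 wrk-1 (r = 0.996) and hal-2 (r = 0.994), and for zip-2 sms-1 (r = 0.998) and F21F3.6 (r = 0.989). kpc-1, which encodes a proprotein convertase, had 4.42, 3.72 and 3.96 CPM in the elt-2 RNAi libraries, against 17.1, 14.4 and 4.13 CPM in the control libraries, with the low control C seen for pha-4. hlh-30 was closest to the collagen gene col-131 (r = 0.993) and the cuticlin gene cut-2 (r = 0.990). cut-2 had 7.91, 20.9 and 21.1 CPM in the elt-2 RNAi libraries, against 342, 1090 and 7.40 CPM in the control libraries, so the peak in control B that hlh-30 showed was far larger in this cuticle gene. skn-1 had no gene as close (ZC477.3, r = 0.907; gly-3, r = 0.896).

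Marker genes of the tissues in which these factors act were read beside them. For the calls in every marker list, the shares over all tested genes were 15.9% lower and 13% higher. The 10 intestinal markers were all tested, with a median log2 fold change of 0.28, 1 called lower (elt-7) and 3 higher (act-5, asp-1 and pept-1). Their summed level was 1690 to 4210 CPM in the elt-2 RNAi libraries and 439 to 1160 CPM in the control libraries, but most of it was the protease gene asp-1. Without asp-1 the sums overlapped (388 to 920 CPM in the elt-2 RNAi libraries and 132 to 492 CPM in the controls), as did the sums of all 10 with library size alone (1180 to 2670 CPM in the elt-2 RNAi libraries and 676 to 1510 CPM in the controls). The intestinal esterase gene ges-1 (-1.18, adjusted p = 0.203) and the intestinal filament genes ifb-2 (-0.03) and ifc-2 (0.06) were not called. ges-1 had 1.41, 4.61 and 1.34 CPM in the elt-2 RNAi libraries, against 7.91, 2.43 and 6.3 CPM in the controls. Within their groups ges-1, cpr-6 and vha-6 were highest in elt-2 RNAi B and lowest in control B. elt-7 went the other way, with its highest level in control B and its lowest in elt-2 RNAi B.

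Of 5 pharyngeal muscle markers 1 was called higher (myo-2), beside 13% of all tested genes. They summed to 141 to 210 CPM in the elt-2 RNAi libraries and 79.5 to 129 CPM in the controls with TMM. Without tnt-4, the most abundant of them, the TMM sums overlapped (57.8 to 101 CPM in the elt-2 RNAi libraries and 51.8 to 68.3 CPM in the controls). With library size alone the sums of all 5 also overlapped. They were 98.1, 134 and 88.7 CPM in the elt-2 RNAi libraries, against 274, 176 and 92.1 CPM in the controls, with control A and control B the highest.

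The epidermal list of 9 genes (7 tested, 2 lower, 1 higher) held the genes in which the controls were least alike. The adult collagen gene col-19 had 12100, 9340 and 14900 CPM in the elt-2 RNAi libraries, against 123, 626 and 8730 CPM in the control libraries. It made up nearly all of the list's sum in the elt-2 RNAi libraries and control C. The other genes held 102 of 225 CPM in control A and 272 of 898 CPM in control B. Without col-19 the TMM sums overlapped (86.8 to 162 CPM in the elt-2 RNAi libraries and 75.5 to 272 CPM in the controls). The collagen gene sqt-3 had 2.67, 2.57 and 4.07 CPM in the elt-2 RNAi libraries, against 69.2, 214 and 1.62 CPM in the control libraries (-4.93, adjusted p = 0.0495). The moulting gene mlt-10 (-2.03, adjusted p = 0.0911) was also called lower, with 2.38 CPM in control C against 13.2 and 18.5 CPM in control A and B. dpy-7, a larval collagen gene with too few libraries above the filter to be tested, had 0.34, 0.21 and 0.349 CPM in the elt-2 RNAi libraries, against 12.7, 17 and 0.128 CPM in the control libraries. In these cuticle genes control C was thus close to the elt-2 RNAi libraries, and control A and control B, the same libraries that were high in pha-4 and pqm-1, stood apart.

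The other sums also depended on the scaling. Calls in these lists stand beside 15.9% lower and 13% higher over all tested genes. Body wall muscle markers (0 of 8 lower, 2 higher) summed to 2350 to 3270 CPM in the elt-2 RNAi libraries and 370 to 2690 CPM in the controls. Without unc-27, the most abundant of them, the TMM sums were apart (1400 to 1630 CPM in the elt-2 RNAi libraries and 232 to 1120 CPM in the controls). Neuronal markers (3 of 9 lower, 1 higher) summed to 110 to 139 CPM in the elt-2 RNAi libraries and 71.4 to 116 CPM in the controls. Without egl-21, the most abundant, these TMM sums were also apart (68.8 to 78.8 CPM in the elt-2 RNAi libraries and 46.4 to 66.9 CPM in the controls). Germ line markers (1 of 9 lower, 1 higher) summed to 830 to 1100 CPM in the elt-2 RNAi libraries and 241 to 603 CPM in the controls. Without glh-1, the most abundant, their TMM sums were barely apart (477 to 603 CPM in the elt-2 RNAi libraries and 223 to 477 CPM in the controls). Sperm markers (0 of 7 lower, 1 higher) summed to 458 to 643 CPM in the elt-2 RNAi libraries and 69.7 to 364 CPM in the controls. Without msp-142, the most abundant, their TMM sums stayed apart (106 to 130 CPM in the elt-2 RNAi libraries and 22 to 37.5 CPM in the controls). With library size alone the groups overlapped in the sums of all 7 marker lists. Without glh-1, however, the germ line sums with library size alone were apart in the direction opposite to TMM. They were 296 to 382 CPM in the elt-2 RNAi libraries and 464 to 768 CPM in the controls. No marker was at 0 in every library, and the part of tissue make-up, or of what set control A and control B apart, in the levels of the 9 factors was not tested.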

How the data were processed

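Messenger RNA of whole N2 larvae at L4 was sequenced by 3SEQ, which reads the 3′ ends of poly-A transcripts. Raw counts, whole reads for each gene in a column per library, were deposited, and the study's methods speak of uniquely mapped reads. The submitters' processing notes name Bowtie 0.12.7. The counting program, build, annotation and use of strand are not given in the sources used here, so overlapping genes and near-identical copies could share or lose reads. Symbols and coordinates come from the WBcel235 annotation (Ensembl release 115), paired by sequence name with 19081 of 19512 genes. The other 431 stayed in the test.

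Groups came from the sample titles. Genes were filtered with filterByExpr, scaled by TMM and compared with edgeR 4.0.16 (R 4.3.3) by a two-sided quasi-likelihood test with group as the only term, over the 11474 genes that passed, and called at a Benjamini-Hochberg adjusted p under 0.10. A count model stood in for the study's rank product, which is among the alternatives. SE is the size of the log2 fold change over the root of F. P-values measure the spread between 3 cultures per group. Alternatives were DESeq2 1.42.0, a rank product with 100 permutations, scaling by library size alone or by that size less the most abundant 3% of genes, a minimum of 10 counts per library or no filter at all, an adjusted p under 0.05, a replicate block, each library left out in turn and both B libraries left out (the same genes tested in these fits). The test was checked on simulated counts. These had the same composition in all libraries apart from the changed genes, so the check does not cover the differences in composition seen here.

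The 9 genes and the pathway lists were chosen with earlier results of these data known. The text names the 9 genes and elt-2, from each list the called genes averaging 2 CPM or more (up to the 4 largest changes) or, with none called, the 2 most abundant, and for each factor the 2 genes of at least 5 CPM most like it (log2 CPM, prior count 2). Other genes are marked as named after their values were seen or are given only as members of a list.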

Additional observations from a re-analysis of the deposited data

How the results depend on the processing

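All 9 factors kept a log2 fold change below 0 in all 15 alternatives, except skn-1, which was at 0.03 without control A (-0.40 to 0.03 without 1 library), and none was called higher in any. The number called lower, 5, was 1 at an adjusted p under 0.05, 9 with library size alone, 8 without the most abundant 3% of genes, 1 with the rank product, 0 without both B libraries and 0 to 4 without 1 library. Over all tested genes 3312 were called, against 1587 at an adjusted p under 0.05, 6441 with library size alone, 1790 without both B libraries and 638 to 3545 without 1 library. The pathway lists held 43 calls, against 20 at an adjusted p under 0.05, 88 with library size alone, 65 without the most abundant 3% of genes, 24 without both B libraries and 4 to 46 without 1 library. elt-2 was at 2.72 to 5.15 without 1 library and was not called without control A (4.71) or elt-2 RNAi C (2.72). Directions turned with library size alone for sip-1 (-0.84), gst-7 (-0.72), hsp-1 (-0.14), myo-2 (-0.38), lys-2 (-1.09) and ifet-1 (-0.98), with the rank product for the same genes (sip-1 -0.87, gst-7 -0.47, hsp-1 -0.11, myo-2 -0.30, lys-2 -0.26, ifet-1 -1.44), without the most abundant 3% of genes for sip-1 (-0.02) and ifet-1 (-0.34), and with DESeq2 for clec-85 (0.02). These scalings move the median gene itself, to -1.76, -1.58 and -0.65. Without 1 library clec-85 ranged from -1.89 to 1.30 and ifet-1 from -0.88 to 0.71. Counts of 27 to 80 for unc-62, pha-4, pqm-1 and hsf-1 in most elt-2 RNAi libraries limit their precision.

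With the replicate block, 1219 genes were called over all tested genes (339 lower, or 2.95%), 0 of the 9 factors (unc-62 -1.59, adjusted p = 0.101) and 12 genes of the pathway lists, and ifet-1 turned to -0.11. The labels do not say whether same-lettered cultures were paired. Deviations from the group means of same-lettered libraries correlated at -0.207, -0.571 and -0.0981 for A, B and C, and no library correlated best with its own letter. The deviations of the 3 libraries of a group cancel out, so these correlations are linked and cannot settle whether cultures were paired.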
